A study of Rattus norvegicus with 6 samples.

Results

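The serotonin receptor genes described here were the 6 genes of the authors' table of age-enriched genes whose name is Htr followed by a digit: *Htr1b*, *Htr2b*, *Htr2c*, *Htr3a*, *Htr5b* and *Htr7*. They were 6 of 10653 genes in that table and of 29479 Ensembl gene identifiers in the table of read counts. The table listed genes that the authors had called between the ages in the same libraries, so the difference of these 6 genes between the ages was what chose them. Their values are therefore given as a description, with no test. RefSeq lists 14 rat genes with such names, and the other 8, *Htr1a*, *Htr1d*, *Htr1f*, *Htr2a*, *Htr3b*, *Htr4*, *Htr5a* and *Htr6*, were not analysed here because no identifier in the count table could be paired with them.

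RNA was taken from the lateral ventricular choroid plexus of Sprague-Dawley rats at 2 ages, embryonic day 15 (E15) and adult (6 weeks). All animals were untreated controls, and the labels name no altered allele. Each age had 3 libraries, and each library was a pool of the left and right plexuses of 10 animals, so the spread within an age is between pools and says nothing of single animals. The plexuses were dissected whole, with their stroma and vessels, and in such bulk tissue fewer cells of a type and less RNA per cell cannot be told apart.

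The choroid plexus is a sheet of secretory epithelium over a vascular stroma that makes cerebrospinal fluid and forms the blood-cerebrospinal fluid barrier. Serotonin acts through G protein-coupled receptors of several families and through a single family of ion channels. Receptors of the 5-HT2 family couple to Gq, which activates phospholipase C and releases calcium through inositol trisphosphate receptors. Those of the 5-HT1 family couple to Gi, the 5-HT7 receptor couples to Gs and raises cyclic AMP, and 5-HT3 receptors are cation channels. The 5-HT2C receptor was first characterised in choroid plexus epithelium and is a known marker of it, and its transcript undergoes adenosine-to-inosine editing by ADAR enzymes.

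*Htr2c*, a gene of 229 kb on the X chromosome in RefSeq (GRCr8), also holds 5 miRNA genes on its own strand, which RefSeq gives 7 mature products. They are shown because they lie within *Htr2c*, the receptor gene on which these data turn. The libraries gave no miRNA counts, so their levels were not measured. Capitals mark the seed, bases 2 to 8, and the 7 seeds were all different.
rno-miR-3552: aGGCUGCAggcccacuucccu
rno-miR-764-3p: gAGGAGGCcauaguggcaacugu
rno-miR-1912-5p: uGCUCAUUgcaugggcuaugu
rno-miR-1912-3p: cACAGAACaugcagugaga
rno-miR-1298: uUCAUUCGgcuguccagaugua
rno-miR-448-5p: aACAUCCUgcauagugcugcca
rno-miR-448-3p: uUGCAUAUguaggauguccca

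Promoter sequence was found in RefSeq (GRCr8) for 5 of the 6 receptor genes, all except *Htr3a*. The 250 bases before the annotated start are shown for *Htr2c* and *Htr2b*, the receptor genes enriched in the adult, and for *Htr1b* and *Htr7*, which were enriched at E15. They lie at chrX:115452940-115453189 (plus strand), chr9:94204088-94204337 (minus), chr8:91414816-91415065 (minus) and chr1:243173049-243173298 (minus). The *Htr2b* and *Htr7* windows lie inside the RefSeq gene spans, whose upstream ends are at chr9:94206851 and chr1:243173636. They thus precede a start within the gene, whereas the *Htr2c*, *Htr1b* and *Htr5b* windows adjoin the upstream end of the gene. Capitals mark matches on either strand to TATAAA (the TATA box), to CCAAT (the CCAAT box), to GGGCGG (the GC box of Sp factors), to TAATCC (bound by OTX-type homeodomains) and to TGACGT (a cyclic AMP response core), and no matches overlapped.
Htr2c: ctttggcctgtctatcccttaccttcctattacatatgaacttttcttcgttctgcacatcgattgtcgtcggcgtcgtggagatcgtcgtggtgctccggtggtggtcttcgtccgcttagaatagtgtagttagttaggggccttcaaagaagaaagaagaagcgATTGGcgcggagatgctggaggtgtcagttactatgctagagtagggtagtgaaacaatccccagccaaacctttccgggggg
Htr2b: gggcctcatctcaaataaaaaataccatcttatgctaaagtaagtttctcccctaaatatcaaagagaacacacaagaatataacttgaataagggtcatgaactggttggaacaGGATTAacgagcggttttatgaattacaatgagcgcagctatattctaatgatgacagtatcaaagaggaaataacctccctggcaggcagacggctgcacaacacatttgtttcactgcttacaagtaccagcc
Htr1b: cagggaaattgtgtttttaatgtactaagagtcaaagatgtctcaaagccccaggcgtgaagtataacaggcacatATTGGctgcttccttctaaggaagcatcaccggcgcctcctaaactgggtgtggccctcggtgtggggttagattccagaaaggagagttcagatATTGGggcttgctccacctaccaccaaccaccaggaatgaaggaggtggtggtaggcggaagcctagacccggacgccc
Htr7: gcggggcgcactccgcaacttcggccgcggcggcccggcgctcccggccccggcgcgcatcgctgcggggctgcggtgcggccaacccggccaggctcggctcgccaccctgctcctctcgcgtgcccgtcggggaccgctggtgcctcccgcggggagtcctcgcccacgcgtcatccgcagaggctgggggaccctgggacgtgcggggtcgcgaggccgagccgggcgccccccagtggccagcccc

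CCAAT was matched in reverse (ATTGG) at 83 bases before the start of *Htr2c*, at 174 and 79 bases before that of *Htr1b*, and at 95 bases before that of *Htr5b*, and 34.0% of 33469 rat promoter windows of this length held it. TAATCC was matched in reverse 135 bases before the start of *Htr2b*, and 6.34% of windows held it. GGGCGG was matched in reverse 71 bases before the start of *Htr5b* (30.5% of windows). TATAAA (12.9% of windows) and TGACGT (6.95%) had no match in the 5 windows. The *Htr7* window held none of the motifs. Its GC content was 80.8% with 38 CpG dinucleotides, against 39.6% and 4 for *Htr2b*, 50.4% and 15 for *Htr2c*, and medians of 51.2% and 5 over all windows. CANNTG (the E-box, not capitalised here) was matched 218 bases before the start of *Htr2c* and 30 bases before that of *Htr2b*, with no match in the *Htr1b*, *Htr5b* and *Htr7* windows, and 65.5% of all windows held it. It was the only motif searched that the windows of both adult-enriched genes held. These matches describe letters in a window and not binding.

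The 6 libraries held 17875089 to 19204440 reads counted on genes. Normalized read counts below are counts scaled with TMM factors, which were 1.32 to 1.33 at E15 and 0.735 to 0.773 in the adult, where the 10 most abundant genes took 24.8 to 27.8% of counts (6.06 to 7.30% at E15). A gene was called when edgeR's quasi-likelihood test gave an adjusted p under 0.05, and 16643 genes were tested. E15 replicate 1 stood apart from the other E15 pools, with Spearman correlations across genes of 0.979 and 0.982 to them against 0.996 between them.

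All 6 receptor genes were called and none had overlapping values at the 2 ages. This carries no weight of its own, since the genes came from a table of called genes. Over all genes tested, 64.0% were called, 34.7% as enriched at E15 and 29.3% as enriched in the adult, and 70.1% did not overlap between the ages. The 5-HT2 receptor genes *Htr2c* and *Htr2b* were enriched in the adult, and the other 4 were enriched at E15. *Htr2c* was the only 1 of the 6 with more than 100 counts in every pool, and the other 5 reached at most 86 counts in any pool. Counts of different genes are not compared as levels, because no gene lengths were given with the counts.

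**Figure D1:**
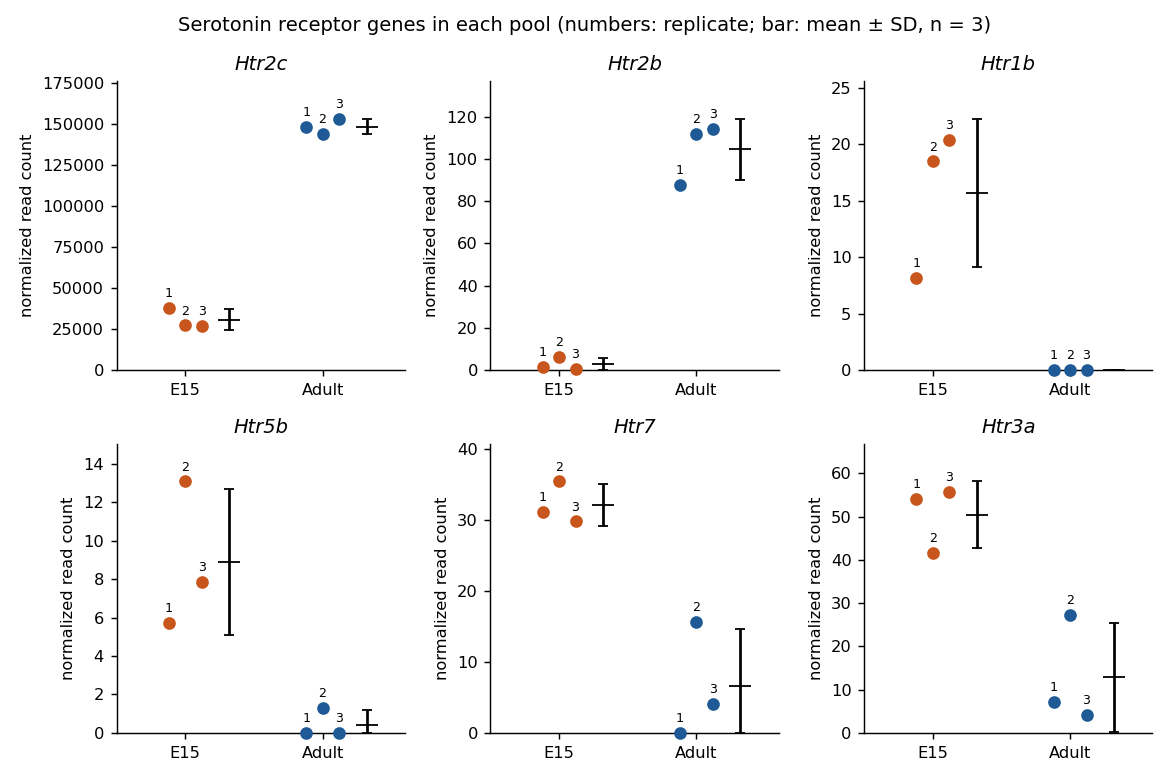
Normalized read count (y axis, linear from 0, a separate scale for each gene) of the 6 serotonin receptor genes in each pool at E15 (orange) and in the adult (blue). Numbers give the replicate, and the bar gives the mean ± SD over 3 pools, cut at 0 where the SD exceeds the mean. *Htr2c* and *Htr2b* were higher in all 3 adult pools, and *Htr1b*, *Htr5b*, *Htr7* and *Htr3a* in all 3 E15 pools, with adult replicate 2 the highest adult pool for *Htr5b*, *Htr7* and *Htr3a*.

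*Htr2c* (ENSRNOG00000030877) encodes the Gq-coupled 5-HT2C receptor. Its raw counts were 46385, 35452 and 34475 at E15, against 104627, 110583 and 111421 in adult pools. All 3 adult pools were far above all 3 E15 pools, and E15 replicate 1 was the highest of its age. *Htr2c* made up 0.260%, 0.188% and 0.186% of all counts in the embryonic libraries, against 0.565%, 0.576% and 0.605% in the adult ones. After scaling, normalized counts were 37965, 27301 and 27036 for the embryonic pools, against 148140, 143590 and 153030 for the adult ones. The embryonic mean was 30767 ± 6235 and the adult mean 148250 ± 4720 (SD, n = 3 pools each), and the log2 fold change of E15 over adult was -2.27 (SE 0.14), or 4.82-fold higher in the adult.

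The spread of *Htr2c* between pools was wider at E15, with a coefficient of variation of 20.3%, than in the adult, where it was 3.18%. Counting error in a single pool was only 0.30 to 0.54%, so depth did not limit these values. E15 replicates 2 and 3 were nearly alike and replicate 1 was 1.40 times their mean. The ratio of adult to E15 counts after TMM scaling stayed between 4.56 and 5.45 when each pool was left out in turn. The size of the difference did depend on scaling: with total counts alone the log2 fold change was -1.46, with totals that left out the 10 most abundant genes it was -1.81, and the median of all genes tested moved from 0.14 to 0.94 and 0.60 under these scalings. *Htr2c* remained higher in the adult under each of them.

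*Htr2b* (ENSRNOG00000017625) encodes the 5-HT2B receptor, the other Gq-coupled member found here, which is known from the heart, the gut and vessels. It had 2, 8 and 1 counts at E15, against 62, 86 and 83 in adult pools. The E15 pools were close to 0 and the adult pools were all at least several times higher. The normalized means were 2.86 ± 2.89 and 104 ± 14.5 (SD, n = 3), the log2 fold change was -5.12 (SE 0.54) and the ratio was 36.2-fold in favour of the adult. Much of the E15 count came from replicate 2, and without that pool the ratio was 87.2, with a 95% interval (exact Clopper-Pearson, for counting error) of 29.5 to 426.

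*Htr1b* (ENSRNOG00000013042) encodes the Gi-coupled 5-HT1B receptor, known as an inhibitory receptor on axon terminals. It had 10, 24 and 26 counts at E15, against 0 in every adult pool. E15 replicate 1 was the lowest of its age, and no read was counted in the adult. The normalized mean at E15 was 15.7 ± 6.57 (SD, n = 3). Against a floor of 3 counts set in place of the 0 over the 3 adult pools, *Htr1b* was 11.6-fold higher at E15. Such a floor-based ratio takes no account of counting error at E15 and is not a strict bound. With 1 adult pool fewer this ratio was 7.56 to 7.89, lowest without adult replicate 2.

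*Htr5b* (ENSRNOG00000002549) encodes the G protein-coupled 5-HT5B receptor and is an intact gene in rodents. It had 7, 17 and 10 counts at E15, against 0, 1 and 0 in adult pools. Every E15 pool was above every adult pool, but the adult value was a single read. The normalized mean at E15 was 8.89 ± 3.79 and the ratio was 19.7, with a 95% counting interval of 3.31 to 803. Without adult replicate 2, which held that read, *Htr5b* was 4.28-fold higher at E15 against a floor of 3 counts over the remaining adult pools.

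*Htr7* (ENSRNOG00000018827) encodes the Gs-coupled 5-HT7 receptor. It had 38, 46 and 38 counts at E15, against 0, 12 and 3 in adult pools. The E15 pools lay close together, whereas most of the adult counts came from replicate 2. The normalized means were 32.1 ± 2.94 and 6.57 ± 8.07 (SD, n = 3), the log2 fold change was 2.24 (SE 0.76) and the ratio was 4.72. Without adult replicate 2 the ratio was 15.4 (95% counting interval 5.14 to 75.6). The call on *Htr7* was lost when E15 replicate 2, E15 replicate 3 or adult replicate 3 was left out, with log2 fold changes of 2.16, 2.29 and 1.97.

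*Htr3a* (ENSRNOG00000006595) encodes the subunit that all 5-HT3 receptor channels need, and in the brain it is known from a class of GABA interneurons. It had 66, 54 and 71 counts at E15, against 5, 21 and 3 in adult pools. All E15 pools were above all adult pools, and adult replicate 2 was again the highest of its age. The normalized means were 50.4 ± 7.70 and 12.8 ± 12.6 (SD, n = 3), the log2 fold change was 1.95 (SE 0.58) and the ratio was 3.83. Without adult replicate 2 the ratio was 9.02, and without adult replicate 1 the log2 fold change was 1.64 and *Htr3a* was no longer called.

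**Figure D2:**
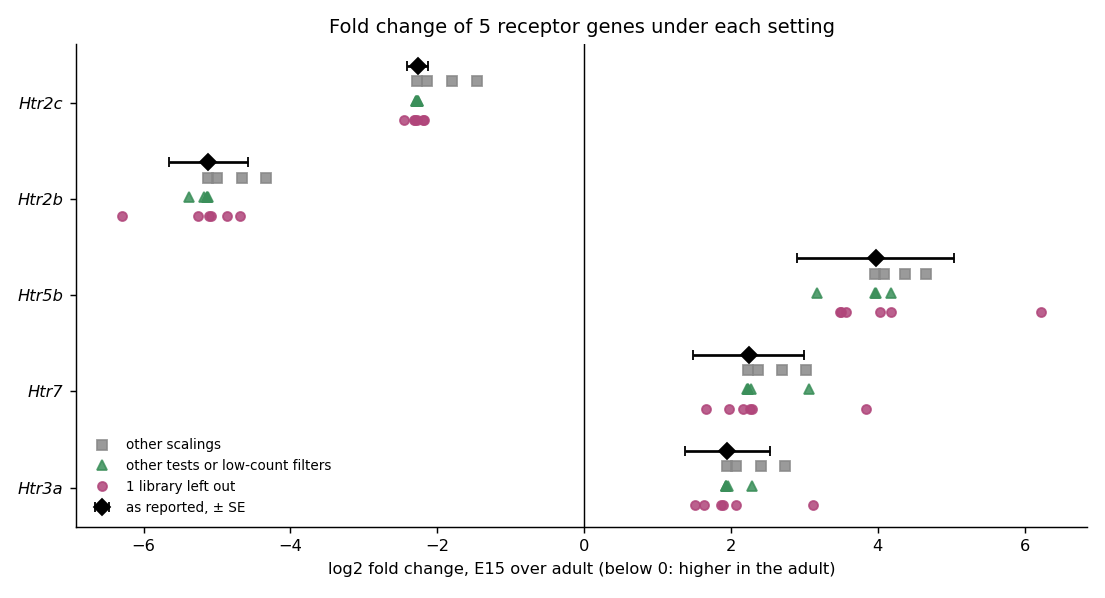
Log2 fold change of E15 over adult (x axis, below 0 is higher in the adult) for 5 receptor genes as reported (diamonds with SE), under other scalings (squares), under other tests or low-count filters (triangles) and with 1 library left out (circles). *Htr1b* is not plotted because it had 0 counts in the adult. No setting moved a gene across 0, and the points farthest from the rest are *Htr2b* without E15 replicate 2 at -6.29, *Htr5b* without adult replicate 2 at 6.23, where no adult read is left and the value is no bound, and *Htr7* and *Htr3a* without that pool at 3.83 and 3.11.

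*Htr3a*, *Htr7* and *Htr5b*, the last on a single adult read, were highest in the adult pool in which markers of some other cell types were also high. *Htr1b* had 0 counts in every adult pool. In adult replicate 2, the ratio of normalized counts to the mean of the other adult pools was 4.55 for *Htr3a*, 6.28 for *Htr7* and 3.60 for *Htr5b*, on values with 0.5 added. It was 0.954 for *Htr2c* and 1.11 for *Htr2b*, near the other pools. *Snap25* and *Syt1*, the named members of a list of adult neuron markers, were both higher in that pool. *Snap25* had 246 raw counts against 73 and 50 (ratio 3.70), and *Syt1* had 183 against 133 and 119 (1.35). Also higher there were 10 of 11 markers of GABA neurons and Cajal-Retzius cells (median ratio 1.72), though *Reln* (1.06) and *Nr2f2* (1.04) only slightly. The same held for 6 of 11 markers of developing neurons (2.59), 6 of 6 of endothelium (1.40) and 6 of 7 of mesenchyme (1.34). The other 5 developing-neuron markers had 0 counts in that pool, and of these *Neurod1* and *Neurod2* were lower there (0.081 and 0.421). The median was 1.01 over 8 epithelial markers, 1.04 over 3 macrophage markers and 0.802 over 3 proliferation markers. The part of these cells in the values of *Htr3a*, *Htr7* and *Htr5b* was not tested.

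The summed normalized counts of the 11 developing-neuron markers were 1687 to 5293 at E15 and 137 to 483 in the adult. All 11 were enriched at E15, but marker names, like those of the receptors, came from a table of called genes, and 92.8% of all named genes tested were called. *Neurod6*, *Nhlh1* and *Nhlh2*, transcription factors of young neurons, had 0 counts in every adult pool. These sums were highest at E15 replicate 1 and lowest at E15 replicate 2. Of the 4 receptor genes enriched at E15, *Htr3a* was also lowest at E15 replicate 2, with normalized counts of 54.0, 41.6 and 55.7. *Htr1b* and *Htr5b* were lowest at E15 replicate 1 and *Htr7* at E15 replicate 3. These orders rest on few reads: counting error in an E15 pool was 11.9 to 13.6% for *Htr3a*. *Htr7* had 38 raw counts at both E15 replicate 1 and replicate 3. The part of young neurons in these receptor values was not tested. For the 2 adult-neuron markers the sums were 79.3 to 172 at E15 and 232 to 557 in the adult, highest in adult replicate 2. Both were enriched in the adult.

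Markers of stromal and other cells were mostly enriched at E15, whereas *Htr2b*, which is known from vessels and stroma, was enriched in the adult. All 6 named endothelial markers were enriched at E15, with sums of 7079 to 9704 at that age against 609 to 1028 in the adult, as were 5 of 7 mesenchymal markers (42047 to 55813 against 15930 to 16544), the single smooth muscle marker, 2 of 3 macrophage markers, both of mast cells and platelets and all 3 of proliferation. Both ependymal markers were enriched in the adult, as were the mesenchymal markers *Dcn* (log2 fold change -2.70) and *Pdgfra* (-1.51), the direction of *Htr2b*. Of 11 markers of GABA neurons and Cajal-Retzius cells, 7 were enriched at E15 and 2 in adult pools. Marker names came from a table of called genes, and 92.8% of all named genes tested were called in either direction. Over all genes tested, 34.7% were called as enriched at E15 and 29.3% as enriched in the adult. The part of any of these cells in the receptor values was not tested.

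**Figure D3:**
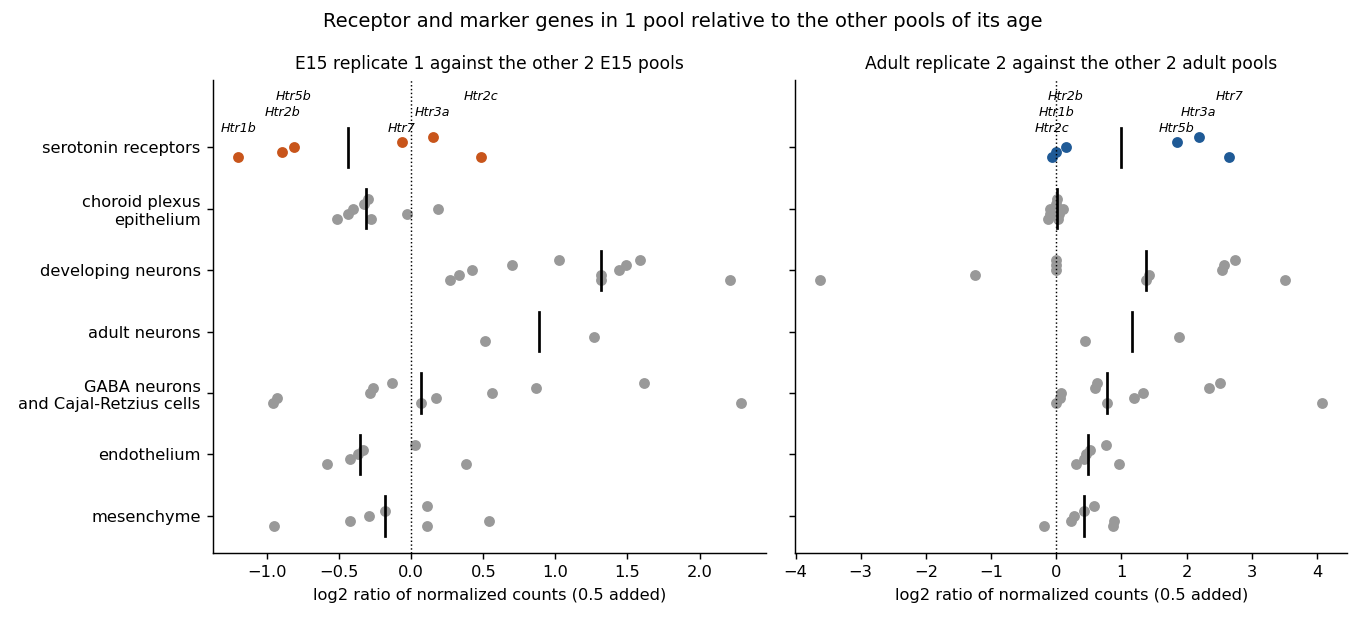
Log2 ratio of normalized counts (x axis, 0.5 added) in E15 replicate 1 to the mean of the other E15 pools (left) and in adult replicate 2 to the mean of the other adult pools (right), for the receptor genes (coloured, named) and marker lists (grey). Each point is a gene, and the vertical bar is the list median. In E15 replicate 1 *Htr2c* was at 0.48 while the epithelial median was -0.31, and in adult replicate 2 *Htr5b*, *Htr3a* and *Htr7* lay at 1.85 to 2.65. The *Htr5b* value in adult replicate 2 rests on 1 read and on the 0.5 added.

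*Htr2c* was then set beside markers of the epithelium, in which it is known to be expressed. Of 11 such markers, 8 had a name in the table and all 8 were enriched in the adult, a share likewise raised by the choice of named genes (92.8% called). None had fewer than 1209 counts in any pool. They ran from *Kcne2*, a potassium channel subunit, at a log2 fold change of -1.35 to *Kl*, which encodes klotho, at -5.49, with a median of -2.79. The log2 fold change of *Htr2c*, -2.27, lay among them. It exceeded that of *Kcne2*, of the water channel gene *Aqp1* (-1.47) and of the chloride channel gene *Clic6* (-1.53). It was smaller than that of the bicarbonate transporter gene *Slc4a5* (-2.42), *Ttr*, which encodes the thyroid hormone carrier transthyretin (-3.16), *Sostdc1*, a secreted BMP and Wnt antagonist (-3.78), the folate receptor gene *Folr1* (-4.62) and *Kl*. The ratio of *Htr2c* counts to a marker's counts was thus 1.84 times as high in the adult as at E15 for *Kcne2* and 0.106 times for *Kl*.

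Within E15 the high *Htr2c* of replicate 1 was not shared by most of these markers. In that pool 7 of 8 epithelial markers were lower than the mean of the other E15 pools, with a median ratio of 0.804 and a range of 0.700 to 1.14, and *Sostdc1* was the exception. The ratio of *Htr2c* to each of the 8 markers was accordingly highest in E15 replicate 1 for all 8, for example 38.4 *Htr2c* reads per *Folr1* read against 21.8 and 19.9. All 11 developing-neuron markers were also higher there (median ratio 2.49), and *Htr1b* and *Htr5b* were lower, at 0.436 and 0.568 times the other pools. Of 11830 genes with a mean count above 100 at either age, 86.6% had a lower ratio in E15 replicate 1 than *Htr2c*. The part of neuron RNA in the *Htr2c* value of this pool was not tested, and without this pool the adult to E15 ratio of *Htr2c* was 5.45.

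The named genes with a pattern across the 6 pools most like that of *Htr2c* were sought among 7566 with a mean count above 100 at either age, by the distance between their log2 normalized counts after centring each gene on its own mean. The other 5 receptor genes had mean counts under 100 at both ages and were given no neighbours. The nearest were *Fbxo8*, an F-box protein gene (distance 0.0597), *Decr1*, a mitochondrial enzyme of unsaturated fatty acid oxidation (0.0687), *Nek7*, a kinase (0.0919), *Palmd*, which encodes palmdelphin (0.0959), and *Idh3a*, a subunit of the citrate cycle isocitrate dehydrogenase (0.107). *Fbxo8* had 581, 426 and 433 counts at E15, against 1266, 1346 and 1363 in adult pools, so that it too was highest at E15 in replicate 1. *Decr1* had 976, 758 and 704 counts at E15, against 2271, 2380 and 2358 in adult pools. These genes were chosen for their likeness over these pools, so a shared order of pools is no separate result. They shared the libraries and their scaling with *Htr2c*, and the likeness is over 6 pools at 2 ages.

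Genes of serotonin supply, signalling and receptor handling were taken from lists of 64 genes, of which 36 had a name in the authors' table. As names came from a table of called genes, the share called is raised by that choice: among all named genes tested, 92.8% were called. Of the 36, 21 were enriched at E15, 12 in the adult and 3 were not called. The median log2 fold change of the 36 was 1.79 (1.66 with *Tph2* at its floor-based value), against 0.73 over all named genes and 0.14 over all genes tested. With total counts alone only 6 were still called as enriched in the adult, and *Prkcd* changed direction, while the other 35 kept theirs under every setting.

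Genes that make serotonin gave few reads. *Tph2*, the rate-limiting enzyme of serotonin synthesis in neurons, had 7, 2 and 6 counts at E15, against 0 in every adult pool. Against a floor of 3 adult counts *Tph2* was 2.90-fold higher at E15. *Ddc*, the decarboxylase that completes the synthesis of serotonin and dopamine, had 78, 56 and 54 counts at E15, against 4, 9 and 14 in adult pools, a log2 fold change of 2.01 (SE 0.46). Both were higher in every E15 pool, and 5 of the 7 genes in this list had no name in the table. The call on *Tph2* was lost when any adult pool was left out, in DESeq2 and with a replicate block.

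Transport and breakdown genes differed in direction, with 1 of 6 named enriched at E15 and 4 in the adult. *Slc6a4*, the serotonin transporter that terminates signalling at serotonin neurons, had 47, 74 and 64 counts at E15, against 0, 3 and 0 in adult pools, a ratio of 35.8 (95% counting interval 12.1 to 175). The adult reads were all in replicate 2, and without that pool *Slc6a4* was 23.3-fold higher at E15 against a floor of 3 counts. *Slc29a4*, a low-affinity monoamine transporter of the plasma membrane, had the opposite pattern, with 330, 271 and 331 counts at E15, against 3434, 3610 and 3060 in adult pools, and was 18.6-fold higher there (log2 fold change -4.22, SE 0.14).

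*Slc18a2*, which loads monoamines into vesicles, had 522, 337 and 384 counts at E15, against 843, 788 and 838 in adult pools, a log2 fold change of -1.77 (SE 0.19). It was highest at E15 in replicate 1, as *Htr2c* was. *Maoa*, the monoamine oxidase that prefers serotonin, was enriched in the adult by a log2 fold change of -1.08 (SE 0.13), though not called with total counts alone. *Maob* had 128, 102 and 80 counts at E15, against 79, 206 and 84 in adult pools, and its log2 fold change of -1.01 (SE 0.37) was -0.50 and not called without adult replicate 2, and its call was also lost without E15 replicate 2 or 3, with upper quartile scaling and with either total-count scaling (-0.21 with total counts alone). *Slc22a2*, an organic cation transporter, had 22, 25 and 24 counts at E15, against 1, 10 and 1 in adult pools and was not called. It was called without adult replicate 2 (log2 fold change 3.60), and also with upper quartile or either total-count scaling, limma-voom and the exact test.

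In the Gq pathway, which *Htr2c* and *Htr2b* use, 7 of 11 named genes were higher at E15 and 3 were enriched in the adult. *Itpr1*, an inositol trisphosphate receptor that releases calcium from the endoplasmic reticulum, had 3021, 3289 and 2873 counts at E15, against 18730, 20081 and 21840 in adult pools. The adult pools were all far above the E15 pools, and *Itpr1* was 11.4-fold higher there (log2 fold change -3.51, SE 0.11). *Plcb4*, a Gq-activated phospholipase C, was also enriched in the adult (-1.54, SE 0.13). *Prkcd*, a protein kinase C, had a log2 fold change of -0.75 (SE 0.14) that became 0.05 with total counts alone, and it was called with neither total-count scaling.

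Other isoforms of the same enzymes were enriched at E15. *Plcb1* had 603, 213 and 288 counts at E15, against 16, 39 and 39 in adult pools, a log2 fold change of 2.79 (SE 0.47), with E15 replicate 1 the highest and a value of 2.19 without it. *Itpr3* had 277, 469 and 443 counts at E15, against 15, 40 and 37 in adult pools, a log2 fold change of 2.91 (SE 0.34). The protein kinase C genes *Prkca* (1.92) and *Prkce* (3.15), the Gq subunit gene *Gnaq* (1.10) and *Rgs4*, which shortens Gq and Gi signals (2.26), were likewise called as higher at E15. *Plcb2* was not called, with 0 to 9 counts in the adult pools and 16 to 25 at E15, though it was called without adult replicate 2 (3.50), and also with either total-count scaling, limma-voom and the exact test.

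**Figure D4:**
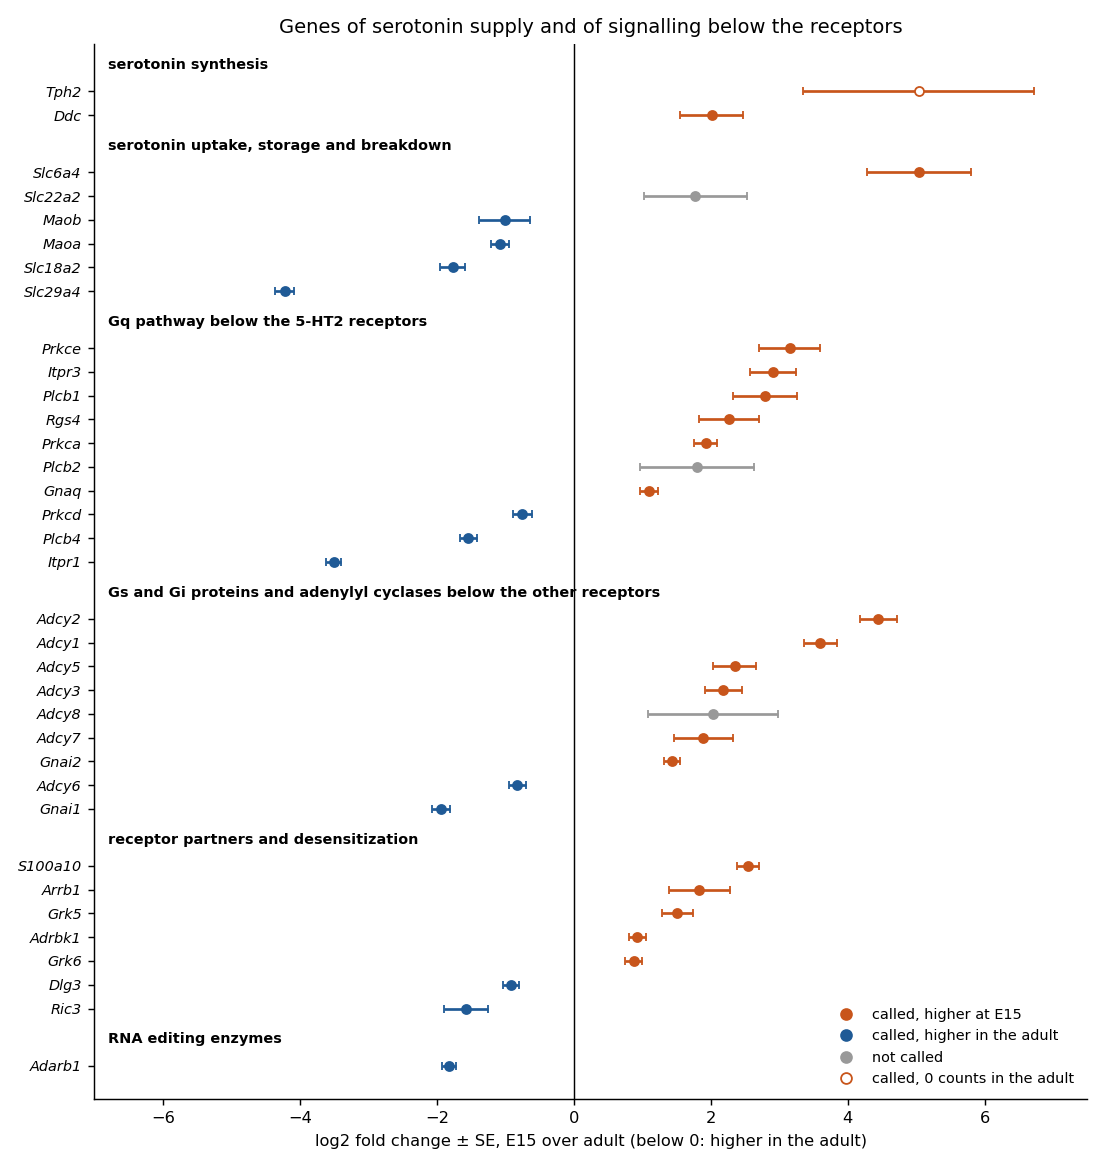
Log2 fold change of E15 over adult with its SE (x axis, below 0 is higher in the adult) for 35 of the 36 named genes of serotonin supply, signalling and receptor handling, grouped by list. Orange genes were called as higher at E15, blue as higher in the adult and grey were not called, and the open point had 0 adult counts, so its value is no bound. *Slc29a4* at -4.22 and *Itpr1* at -3.51 lie farthest on the adult side, and *Slc6a4* at 5.04 and *Adcy2* at 4.44 lie far on the E15 side.

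Among G proteins and adenylyl cyclases below the Gs- and Gi-coupled receptors, 6 of 9 named genes were higher at E15 and 2 were enriched in the adult. The Gi subunit genes differed in direction. *Gnai1* had 805, 648 and 693 counts at E15, against 1607, 1558 and 1607 in adult pools (log2 fold change -1.94, SE 0.13), whereas *Gnai2* had 11634, 14983 and 14298 at E15, against 2695, 3317 and 2773 in adult pools (1.44, SE 0.11). The cyclase genes *Adcy1* (3.60), *Adcy2* (4.44), *Adcy3* (2.18), *Adcy5* (2.35) and *Adcy7* (1.89) were enriched at E15, whereas *Adcy6* was enriched in the adult (-0.82) but not called with total counts alone. *Adcy8* varied from 3 to 63 counts at E15 and was not called. It was called without E15 replicate 1, its lowest pool (2.56), and also with either total-count scaling and the exact test.

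Of 7 named genes whose products bind or desensitize these receptors, 5 were enriched at E15. They were *S100a10*, or p11, which brings 5-HT1B receptors to the cell surface (2.55, SE 0.16), the arrestin gene *Arrb1* (1.83) and the receptor kinase genes *Grk5* (1.51), *Adrbk1* (0.92) and *Grk6* (0.88). *Dlg3*, a scaffold protein with PDZ domains (-0.92), and *Ric3*, a chaperone for 5-HT3 and nicotinic receptor channels (-1.58, SE 0.33), were enriched in the adult, and neither was called with total counts alone. *Ric3* thus ran opposite to *Htr3a*, with 29, 40 and 44 counts at E15, against 53, 92 and 52 in adult pools, the highest again in adult replicate 2. *S100a10* was in the direction of *Htr1b*, with 1103, 1061 and 928 counts at E15, against 96, 123 and 89 in adult pools.

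*Adarb1* encodes ADAR2, 1 of the enzymes that edit the *Htr2c* transcript. It had 994, 1177 and 1107 counts at E15, against 2084, 2322 and 2322 in adult pools, and was enriched in the adult with a log2 fold change of -1.82 (SE 0.10), or 3.54-fold. All adult pools were above all E15 pools, and unlike *Htr2c* the lowest E15 pool was replicate 1. *Adar* and *Adarb2* had no name in the table and were not analysed here. Editing of *Htr2c* itself cannot be read from gene counts.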

How the data were processed

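Libraries were made with an Illumina mRNA-Seq kit and read by 100 bases from a single end. The authors kept reads with a unique place in the Ensembl release 61 rat genome (Bowtie 0.12.7), and HTSeq 0.4.7p4 gave the deposited raw counts per Ensembl gene. A second deposited table of genes that the authors called with edgeR 2.4.0 held log2 values, p-values and gene names. Its names and identifiers were used and its fold changes and p-values were not.

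Counts of 16643 genes with more than 10 reads in all were tested with edgeR 4.0.16 (quasi-likelihood, TMM factors, age as the only term, R 4.3.3), adjusted by Benjamini-Hochberg at 0.05. Log2 fold changes come from that fit. A gene's ratio between the ages, floor-based or not, instead compares counts summed over pools and divided by summed TMM-scaled library sizes. Each standard error was derived as the absolute log2 fold change divided by the square root of the quasi-likelihood F statistic. Counting intervals (95%) cover counting error only, and floors of 3 counts cover only that of the age at 0. The code was tested on simulated data. Gene names covered 10093 identifiers, 9724 from the authors and 369 through RefSeq accessions in the descriptions, and 560 listed genes had none. Named were all Htr genes, fixed lists of pathway genes and markers, and the 5 nearest genes to *Htr2c*. The receptor genes and all lists were chosen with earlier results of these data known. Alternatives were 4 scalings, 3 low-count filters, DESeq2 1.42.0, limma-voom (limma 3.58.1), the exact test with a common dispersion, a replicate block and each library left out. Sequences are from RefSeq tables on GRCr8, another build than that of the counts. Nothing in the labels says that pools came from separate litters. A single pathway gene counted in the lists is not reported here by name.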

Additional observations from a re-analysis of the deposited data

How the results depend on the processing

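No alternative reversed the direction of any of the 6 receptor genes. Scaling by total counts alone gave 9799 genes enriched at E15 and 2292 in the adult against 5773 and 4879, so that 81.0% of calls in place of 54.2% were at E15. Total counts without the 10 most abundant genes gave 3196 in the adult (71.6% at E15). Under total counts alone 6 pathway genes in place of 12 were enriched in the adult, and the *Htr2c* log2 fold change was -1.46, or -1.81 without the 10 most abundant genes. For *Htr1b*, at 0 in the adult, the fitted log2 value depends on the method and is no bound: 6.99 in edgeR, 5.96 in DESeq2 and 4.47 in limma-voom. Leaving out 1 library at a time gave 5009 to 6218 calls at E15, 4327 to 5449 in the adult, 20 to 22 and 11 to 12 pathway genes, and log2 fold changes of -2.45 to -2.19 for *Htr2c*, -6.29 to -4.69 for *Htr2b*, 6.67 to 7.22 for *Htr1b*, 3.48 to 6.23 for *Htr5b*, 1.65 to 3.83 for *Htr7* and 1.51 to 3.11 for *Htr3a*.

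Replicate numbers did not pair the pools: the correlations of same-numbered pools' deviations were -0.05, 0.05 and -0.16, and not every pool correlated best with its own number. With a replicate block 9928 genes were called in place of 10652, and the receptor genes had log2 fold changes of -2.29 (*Htr2c*), -5.23 (*Htr2b*), 6.99 (*Htr1b*), 4.08 (*Htr5b*), 2.58 (*Htr7*) and 2.18 (*Htr3a*). edgeR's filterByExpr dropped *Htr5b*, and a mean count above 100 left only *Htr2c*. Depth limits *Htr1b*, *Htr5b*, *Htr2b* and *Htr7*, which had under 20 counts in all at 1 of the ages.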
